A study of Mus musculus with 18 samples.

Results

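The Notch pathway was followed through 10 of its genes in cultured mouse fetal kidneys: the receptors Notch1, Notch2 and Notch3, the ligands Dll1, Dll4 and Jag1, and the Hes and Hey target genes Hes1, Hes5, Hey1 and Heyl. The genes were taken by symbol from the 78317 genes of the deposited table, and each was described in 6 groups of libraries. All 10 were among the 16544 genes that passed a filter on low counts, Hes5 only through the negative fraction described next. Kidneys of wild-type CD1 embryos at day 14 received the adeno-associated virus AAV2 for 4 hours and were then grown for 72 hours in a gel of collagen I and Matrigel. Each vector carried an mCherry reporter under the ubiquitous CAG promoter and 2 mir30 hairpin cassettes, directed against Mylk (Mylk-shRNA), against Rock1 and Rock2 (Rock1/2-shRNA) or at shuffled Rock sequences (scramble-shRNA). Mylk encodes the kinase of myosin light chains, and all the targeted genes encode kinases that promote contraction of actomyosin. Explants of a condition were pooled, digested and sorted, and the brightest 25% of cells formed the mCherry-positive fraction and the dimmest 50% the mCherry-negative fraction. The negative cells therefore came from cultures that had also received virus. Each of the 3 litters gave 1 library for each vector and fraction, so that the 6 groups held 3 libraries each, 18 in all.

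Notch receptors are single-pass membrane proteins that are activated by Delta-like and Jagged ligands on a neighbouring cell. Ligand binding leads to cleavage by an ADAM protease and then by gamma-secretase, and the freed intracellular domain joins the DNA-binding protein RBPJ to switch on Hes and Hey genes, which encode transcriptional repressors. In the developing kidney the pathway is known for its part in nephron segmentation, in which Notch2, Dll1 and Jag1 act in early nephrons, and also for its parts in arteries, where Dll4 is an endothelial ligand, and in mural cells, where Notch3 and Heyl are expressed.

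The libraries held 3121206 to 12170313 counts, with a median of 4196944 in the positive and 10915153 in the negative fraction. The first principal component (40.0% of the variance) separated the fractions, and the second (21.5%) set litter 3 apart from the others. Mitochondrial transcripts made up 3.95 to 9.16% of counts in litter 3 and 2.01 to 4.02% in litters 1 and 2. Each listed marker of nephron progenitors, early nephrons, stroma, endothelium and mural cells was counted in every library. Of the lists of markers, all 8 macrophage genes (such as Csf1r) and all 6 tested erythroid genes were higher in the positive fraction. By the averaged test of the fractions given below, 17.6% of all genes tested were higher there. Checked against scramble-shRNA, Mylk stood at 87.9% (95% interval 71.3 to 108) with Mylk-shRNA in the positive fraction, and Rock1 and Rock2 at 94.1% (76.7 to 115) and 88.7% (70.8 to 111) with Rock1/2-shRNA. Each interval includes 100%, so no fall of a targeted transcript was detected, and the vectors are referred to by their labels throughout.

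The sharpest contrast among the 10 genes lay between the sorted fractions. Averaged over the 3 vectors, the ligands Dll1, Dll4 and Jag1 and the targets Hes1 and Hey1 were lower in mCherry-positive cells, whereas Notch3 and Heyl were higher, and Notch1 and Notch2 did not pass. This made 7 of the 9 genes other than Hes5 called at an adjusted p of 0.05 (edgeR's quasi-likelihood test, Benjamini-Hochberg over all genes tested). Those 9 genes were above the filter's limit in all libraries of both fractions. Hes5 was above it in 5 negative libraries and no positive one, which means that it could enter only by being lower in positive cells, so its values are described with no test of the fractions and it is left out of their counts. The fractions differed widely, since the same test called 33.6% of all genes, 17.6% higher and 16.0% lower. The median log2 fold change of the 9 genes was -0.18, beside -0.03 for all genes tested. In bulk RNA of sorted cells, fewer cells of a type and less RNA per cell cannot be told apart. Levels below are deposited CPM values, counts scaled so that each library sums to 1000000, which carry no correction for transcript length, so they are compared between libraries and not between genes.

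**Figure D1:**
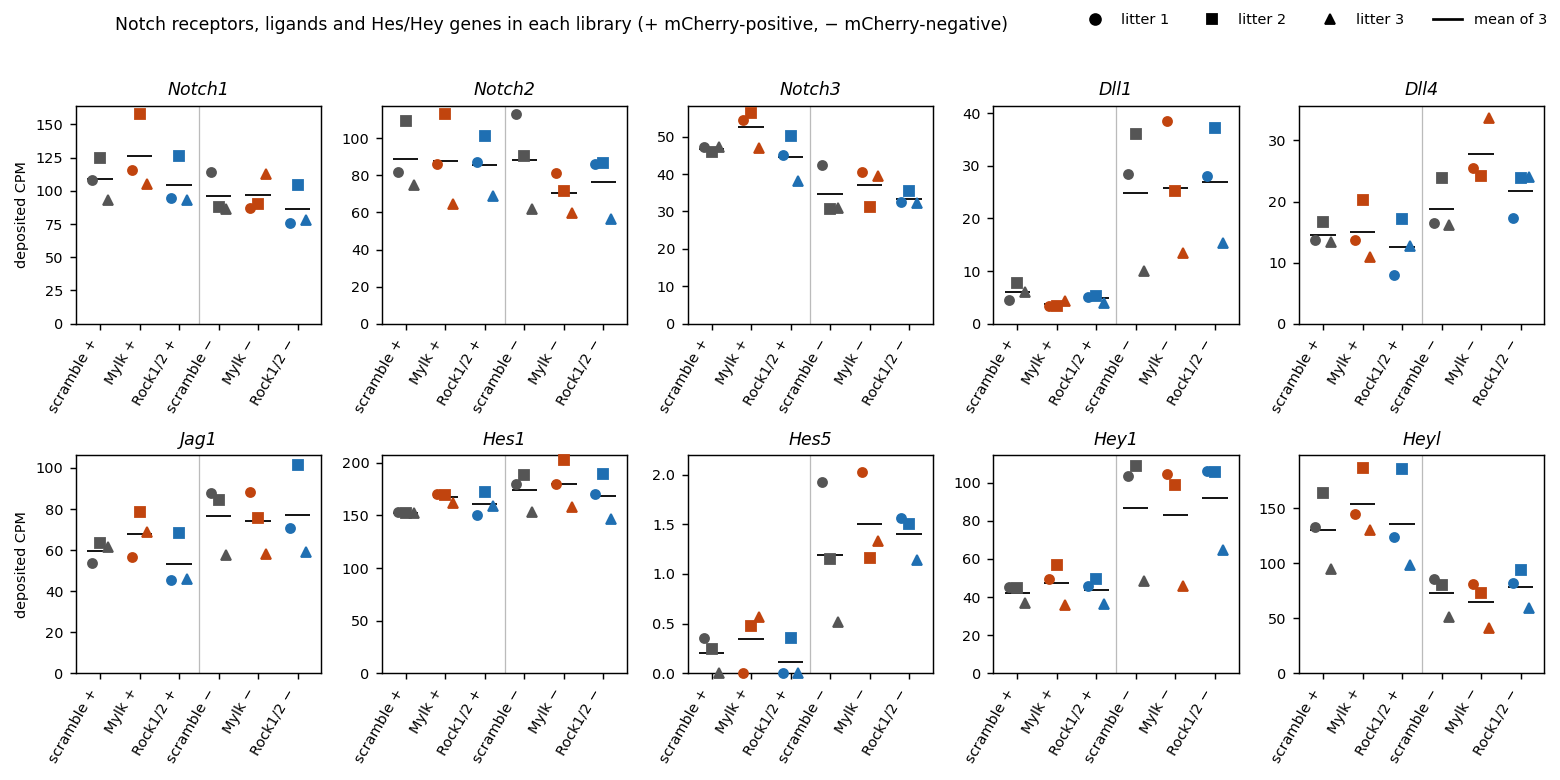
Deposited CPM of the 10 genes in each of the 18 libraries, with 1 panel per gene, groups along the horizontal axis (+ mCherry-positive, − mCherry-negative), symbols for the litters and bars for the mean of 3 libraries. Dll1 stays at or below 7.73 CPM in the 9 positive libraries and at or above 10.0 CPM in the 9 negative ones, and the litter 3 triangles of Dll1 and Hey1 are the lowest points of each negative group.

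Dll1, a Delta ligand of early nephrons, showed the largest well-counted difference. In scramble-shRNA cultures it measured 4.44, 7.73 and 6.03 CPM in the positive fractions of litters 1, 2 and 3, against 28.4, 35.9 and 10.0 CPM in the negative fractions. With Mylk-shRNA the values were 3.42, 3.34 and 4.23 CPM against 38.6, 25.3 and 13.5 CPM. With Rock1/2-shRNA they were 5.13, 5.32 and 3.92 CPM against 28.1, 37.2 and 15.4 CPM. No positive library reached any negative one, although the lowest negative libraries, all of litter 3, lay nearest. The ranges of the 9 positive and 9 negative libraries were as separate for 8.72% of all genes tested, 2.06% lower and 6.65% higher. The fitted log2 fold change was -2.51 ± 0.27 (SE, n = 9 against 9), with an edgeR adjusted p of 2.04e-06. Here and below, n counts libraries. The 9 libraries of a fraction came from 3 litters, and this fit treats them as independent. Pooled by vector, Dll1 in positive cells stood at 21.7% of the negative level with scramble-shRNA, 12.4% with Mylk-shRNA and 17.7% with Rock1/2-shRNA.

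Dll4, the Delta ligand of arterial and sprouting endothelium, was lower in positive cells by a smaller margin. Its positive libraries ran from 8.01 through a median of 13.7 to 20.3 CPM, and its negative libraries from 16.2 through 23.9 to 33.6 CPM. The ranges overlapped, but within each of the 9 cultures the positive library was the lower one, as for 7.59% of all genes tested. Its log2 fold change was -0.71 ± 0.14 (SE, n = 9 against 9; edgeR adjusted p 5.95e-04). Of all genes tested, 16.0% were lower and 17.6% higher in the positive fraction. Of the 12 endothelial markers (such as Pecam1 and Cdh5), 7 were lower and 2 higher. Their summed level was 166 to 307 CPM in positive and 235 to 415 CPM in negative libraries, and their part in the Dll4 result was not tested.

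Jag1, a Jagged ligand, ran from 45.5 through a median of 61.5 to 78.6 CPM in positive libraries and from 57.8 through 75.6 to 102 CPM in negative ones. Its ranges overlapped broadly, and 6 of 9 cultures had the lower value in the positive fraction. Its log2 fold change was -0.39 ± 0.11 (SE, n = 9 against 9), with an edgeR adjusted p of 0.0109.

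Of the receptors Notch1, Notch2 and Notch3, only Notch3 passed in the fit of all 18 libraries with no block. This receptor of mural and mesenchymal cells measured 38.2 to 56.2 CPM in positive libraries (median 47.2) and 30.7 to 42.5 CPM in negative ones (median 32.5). It was higher in the positive library of all 9 cultures, as for 15.2% of all genes tested, and its ranges overlapped across litters. For Notch3 the log2 fold change was 0.40 ± 0.07 (SE, n = 9 against 9; edgeR adjusted p 2.42e-04).

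Notch1, a receptor of endothelium and early nephrons, ran from 92.8 through a median of 108 to 157 CPM in positive and from 75.8 through 87.4 to 114 CPM in negative libraries. It was higher in the positive library of 7 of 9 cultures, and the fractions overlapped. Its log2 fold change of 0.23 ± 0.09 (SE, n = 9 against 9) gave an edgeR adjusted p of 0.0637, which did not pass. It passed with litter as a block (adjusted p 0.0234), with the culture as a block (0.0157) and without litter 3 (0.0257), and in 6 of the 18 fits that left out 1 library. Those were the fits without the positive library of litter 3 with scramble-shRNA (0.0470) or Mylk-shRNA (0.0489), of litter 1 with Rock1/2-shRNA (0.0476), or the negative library of litter 1 with scramble-shRNA (0.0381), of litter 2 with Rock1/2-shRNA (0.0328) or of litter 3 with Mylk-shRNA (0.0281). Notch2, the receptor needed for proximal nephron fates, hardly separated the fractions, with 64.7 through 86.0 to 113 CPM in positive and 56.6 through 81.3 to 113 CPM in negative libraries. For Notch2 the log2 fold change was 0.11 ± 0.12 (SE, n = 9 against 9; edgeR adjusted p 0.541; 95% interval -0.15 to 0.36). Counts of Notch2 were fractional in 9 of 18 libraries, and what produced the fractions was not tested.

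Of the target genes, Hes5 had the lowest fitted ratio and the thinnest counts. It encodes a basic helix-loop-helix repressor that is a direct target of RBPJ in neural and nephron precursors. In positive libraries of litters 1, 2 and 3 it measured 0.355, 0.246 and 0 CPM with scramble-shRNA, 0, 0.476 and 0.564 CPM with Mylk-shRNA, and 0, 0.355 and 0 CPM with Rock1/2-shRNA. In negative libraries it measured 1.92, 1.15 and 0.514 CPM with scramble-shRNA, 2.03, 1.16 and 1.33 CPM with Mylk-shRNA, and 1.57, 1.5 and 1.14 CPM with Rock1/2-shRNA. The positive member of each culture was lower in 9 of 9 cultures, as for 7.59% of all genes tested, and the filter favoured this direction for Hes5. The ranges touched only through the scramble-shRNA negative library of litter 3.

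These Hes5 levels rest on 0 to 3 counts in a positive and 2 to 23 counts in a negative library, and 4 of the 9 positive libraries held none. A count of 0 there allows up to 3 counts, or 0.310 to 0.961 CPM at the positive libraries' depths. Summed over litters, Hes5 in positive cells stood at 17.2% of the negative level with scramble-shRNA (4 against 37 counts; 95% exact binomial interval 4.46 to 47.9%). It stood at 14.9% with Mylk-shRNA (4 against 43 counts; 3.89 to 41.0%) and at 13.4% with Rock1/2-shRNA (3 against 39 counts; 2.64 to 42.0%). Intervals and floors cover counting error only, with counts pooled over 3 litters. The filter admitted Hes5 only as lower in positive cells, so the intervals are no test of the fractions. The fitted log2 fold change was -2.64, a value that depends on how counts near 0 are modelled.

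The promoter of Hes5 is shown because it was the only one among those read here that held the RBPJ core motif. RefSeq windows of the 250 bases upstream of the annotated start (build GRCm38.p6) were matched for 7 of the 10 genes in 8 windows, and none was read for Hes1, Hey1 and Heyl. The core TGGGAA, searched on both strands, occurs in 21.6% of all 32841 promoter windows of that length, and the longer form GTGGGAA, which contains it, in 5.41%. Hes5 lies on the plus strand, and its window at chr4:154960673-154960922 is printed 5′ to 3′ with the GTGGGAA matches in capitals.
Hes5: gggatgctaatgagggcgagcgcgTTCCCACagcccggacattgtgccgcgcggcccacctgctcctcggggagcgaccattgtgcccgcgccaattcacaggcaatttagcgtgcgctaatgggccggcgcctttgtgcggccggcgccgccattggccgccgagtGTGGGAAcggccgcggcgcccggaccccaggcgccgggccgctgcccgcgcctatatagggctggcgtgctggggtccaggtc
The match on the minus strand begins 226 bases before the start and the match on the plus strand 83 bases before it, so that they face in opposite orientations. Holding 2 or more GTGGGAA matches was found in 0.161% of all windows. The Hes5 window was shown because it held the motif, so this share is no test. A match describes the letters in this window and no binding was measured.

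Hey1, a Hey-family repressor, was lower in the positive library of all 9 cultures, as for 7.59% of all genes tested. With scramble-shRNA it measured 45.3, 44.9 and 36.8 CPM in the positive libraries of litters 1, 2 and 3 and 104, 108 and 48.3 CPM in the negative ones. With Mylk-shRNA the values were 49.3, 56.9 and 36.1 CPM against 104, 98.9 and 46.0 CPM. With Rock1/2-shRNA they were 45.8, 49.5 and 36.5 CPM against 106, 105 and 64.6 CPM. The negative libraries of litters 1 and 2 clustered near 100 CPM, whereas 2 of the 3 from litter 3 fell within the positive range. For Hey1 the log2 fold change was -1.03 ± 0.17 (SE, n = 9 against 9; edgeR adjusted p 1.94e-04).

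Heyl, the Hey-family gene of vascular smooth muscle, went the other way. Its positive libraries measured 133, 164 and 95.1 CPM with scramble-shRNA, 145, 187 and 131 CPM with Mylk-shRNA, and 124, 186 and 98.2 CPM with Rock1/2-shRNA. Its negative libraries measured 85.7, 80.5 and 51.7 CPM, then 81.3, 72.8 and 41.6 CPM, and then 81.7, 94.3 and 59.8 CPM for the same vectors. The fractions did not overlap, though the lowest positive value (95.1 CPM) lay close to the highest negative one (94.3 CPM). Positive libraries all lay above negative ones for 6.65% of all genes tested. Litter 3 was the lowest of each group. Heyl had a log2 fold change of 0.90 ± 0.15 (SE, n = 9 against 9; edgeR adjusted p 1.91e-04).

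Hes1, the most broadly expressed Hes gene, differed least among the genes that passed. It ran from 151 through a median of 159 to 173 CPM in positive and from 147 through 180 to 203 CPM in negative libraries, and the positive range lay inside the negative one. Lower values in the positive library were seen in 7 of 9 cultures, all of litters 1 and 2 and 1 of litter 3. Hes1 had a log2 fold change of -0.18 ± 0.06 (SE, n = 9 against 9; edgeR adjusted p 0.0363). This call was lost without the filter on low counts (adjusted p 0.218) and in 13 of 18 fits that left out 1 library (adjusted p up to 0.118, without the Rock1/2-shRNA positive library of litter 1). It held without each of the 3 negative libraries of litter 3, the Mylk-shRNA positive library of litter 1 and the Mylk-shRNA negative library of litter 1.

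Markers of several kidney cell types also differed between the fractions. All 8 early nephron markers (such as Lhx1 and Pax8) were lower in the positive fraction, as Dll1, Dll4, Jag1, Hes1 and Hey1 were. Their summed levels were 317 to 401 CPM against 687 to 1245 CPM for these 8 markers. All 8 nephron progenitor markers, 5 of 6 ureteric tip markers and 7 of 8 collecting duct markers were lower too. Their summed levels overlapped between the fractions, at 466 to 626 against 497 to 1058 CPM for nephron progenitors. For the ureteric tip they were 114 to 155 against 125 to 228 CPM, and for collecting duct 62.9 to 106 against 87.7 to 165 CPM. Of all genes tested, 16.0% were lower and 17.6% higher. All 10 stromal markers (4780 to 8079 CPM against 3136 to 3859 CPM) and 6 of 10 mural, smooth muscle and renin markers (653 to 1274 CPM against 393 to 579 CPM) were higher, as Notch3 and Heyl were, and 1 mural marker was lower. Podocyte markers split 2 higher and 2 lower of 5 tested, 1 of 6 proximal tubule markers was lower, and neural crest and glial markers split 1 higher and 1 lower of 3. Summed macrophage markers were 207 to 425 CPM in positive and 7.07 to 16.2 CPM in negative libraries, and summed erythroid markers 389.8 to 3415 CPM and 78.0 to 364 CPM. The part of these cell types in the results was not tested.

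**Figure D2:**
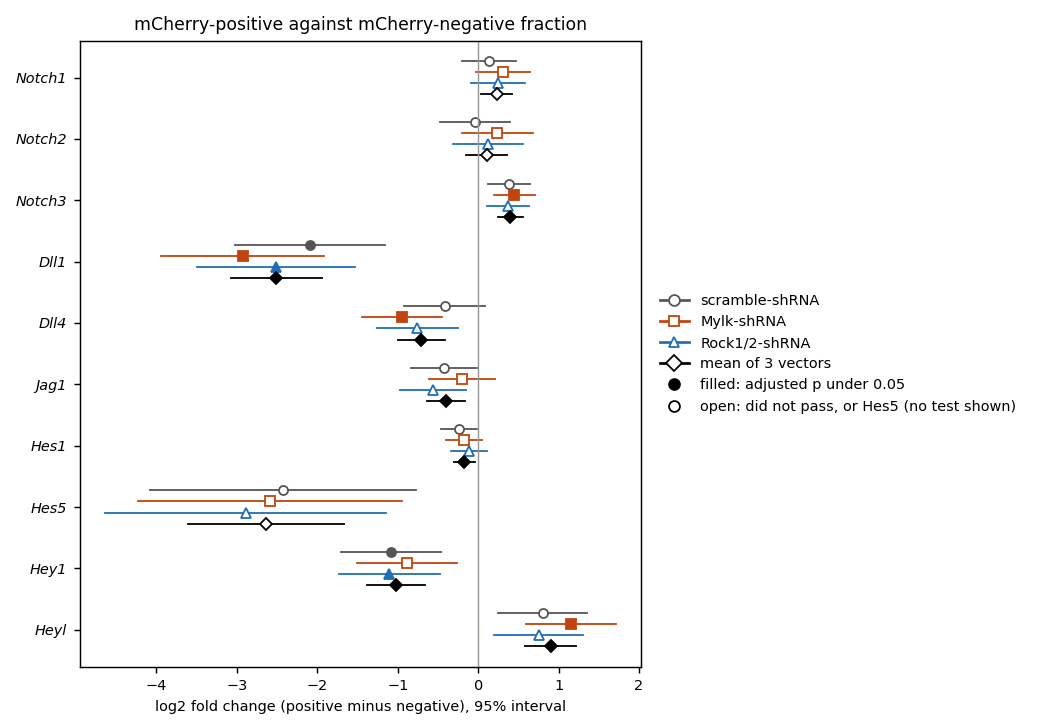
Log2 fold change (positive minus negative fraction) with 95% intervals from the edgeR fit for each gene, by vector and averaged over the vectors; filled symbols passed an adjusted p of 0.05, and Hes5 is drawn open because no test is given for it. Each gene other than Notch2 keeps 1 direction over the 3 vectors, and the averaged values run from -2.64 for Hes5 to 0.90 for Heyl.

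Taken vector by vector, each with 3 libraries against 3, fewer genes passed and the directions were the same apart from Notch2. With scramble-shRNA, 2 of the 9 genes other than Hes5 passed beside 12.3% of all genes, namely Dll1 at a log2 fold change of -2.10 and Hey1 at -1.08. With Mylk-shRNA, 4 passed beside 13.2%, with Notch3 at 0.45 and Heyl at 1.16 higher and Dll1 at -2.93 and Dll4 at -0.94 lower. With Rock1/2-shRNA, 2 passed beside 11.2%, namely Dll1 at -2.51 and Hey1 at -1.11. The fitted values of Hes5 were -2.43, -2.59 and -2.89 in the same order of vectors, given with no test. With litter as a block the counts became 5 with scramble-shRNA and 6 with Rock1/2-shRNA. Notch3 and Heyl were then higher and Dll1, Jag1 and Hey1 lower with both of these vectors, and Dll4 was also lower with Rock1/2-shRNA. Under the block 5 passed with Mylk-shRNA, the same 4 and Hey1. By range alone, the 3 positive libraries did not overlap the 3 negative ones for 5 of the 9 genes with scramble-shRNA (26.2% of all genes), 4 with Mylk-shRNA (25.4%) and 5 with Rock1/2-shRNA (26.8%), and Notch3, Dll1 and Heyl were separate with each vector.

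Several of these single-vector calls were lost in some fits that left out 1 library. The calls of Hey1 with scramble-shRNA and with Rock1/2-shRNA were each lost in 5 of 6 fits without 1 library, with adjusted p up to 0.12 without the scramble-shRNA negative library of litter 2 and up to 0.0992 without the Rock1/2-shRNA positive library of litter 3, and held only without the negative library of litter 3. In these lost fits the log2 fold change of Hey1 stayed between -1.19 and -0.90. Both calls were also lost with no filter on low counts, at -1.13 (adjusted p 0.196) and -1.14 (0.204). The Notch3 call with Mylk-shRNA was lost without the positive library of litter 1 (adjusted p 0.0891) or litter 2 (0.0534) or the negative library of litter 2 (0.116), and also with no filter on low counts (0.0826) or with only the compared groups fitted (0.0814). The Dll4 call with Mylk-shRNA was lost without the positive library of litter 1 (adjusted p 0.0655) or litter 3 (0.0510), and without litter 3 altogether (-0.68, adjusted p 0.103). The calls of Dll1 with each vector and of Heyl with Mylk-shRNA held in all 6.

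**Figure D3:**
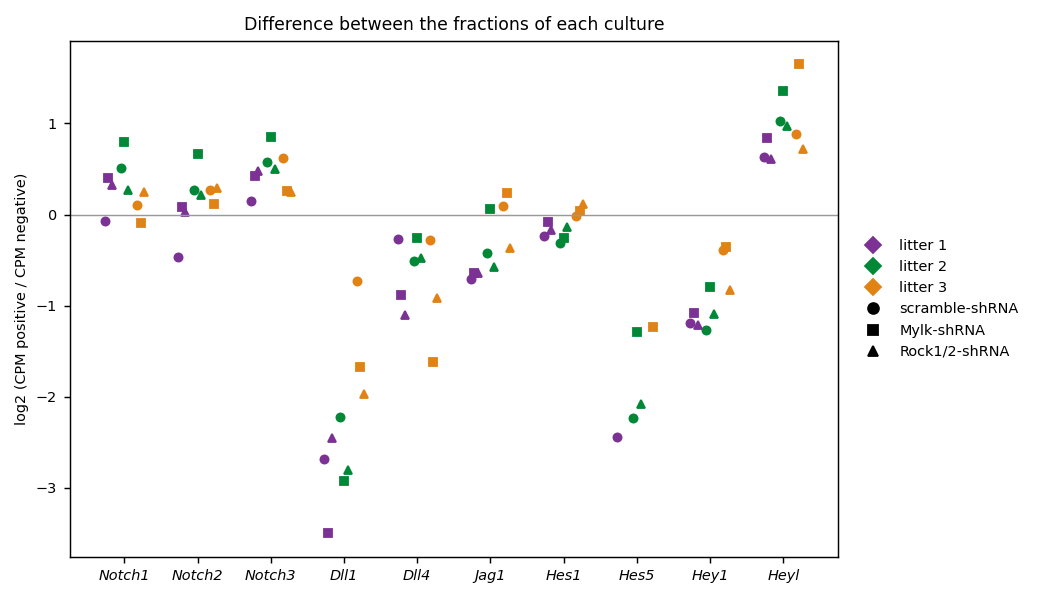
Log2 ratio of deposited CPM, positive over negative library, for each of 9 cultures, with colours for litters and symbols for vectors; the 4 cultures in which Hes5 had no count in the positive library are not drawn for Hes5. The litter 3 points of Dll1 lie above those of litters 1 and 2, and all points of Notch3 and Heyl lie above 0.

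Within cultures, 5 of the 9 genes other than Hes5 had 1 sign in all 9 cultures, Notch3 and Heyl higher and Dll1, Dll4 and Hey1 lower in the positive library, beside 22.8% of all genes tested (15.2% higher and 7.59% lower). The size of the difference followed the litter for some of them. For Dll1 the log2 ratio was -3.50 to -2.22 in the 6 cultures of litters 1 and 2 and -1.97 to -0.73 in the 3 cultures of litter 3. For Hey1 it was -1.27 to -0.80 against -0.82 to -0.35, and for Hes1 it was -0.31 to -0.08 against -0.01 to 0.12. Heyl showed no such offset, with 0.61 to 1.36 in litters 1 and 2 and 0.71 to 1.65 in litter 3. Without litter 3 the averaged log2 fold changes were -2.79 for Dll1, -1.17 for Hey1 and -0.26 for Hes1, each past the test, and Notch1 also passed at 0.32 (edgeR adjusted p 0.0257).

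Ordered by group mean, the 10 genes fell into ladders whose neighbouring steps seldom exceeded the spread. For Dll1 the 3 negative groups stood highest, at 26.9 ± 10.97 (Rock1/2-shRNA), 25.8 ± 12.6 (Mylk-shRNA) and 24.8 ± 13.3 CPM (scramble-shRNA; SD, n = 3), above 6.07 ± 1.65, 4.79 ± 0.76 and 3.66 ± 0.49 CPM in the positive groups of scramble-shRNA, Rock1/2-shRNA and Mylk-shRNA. Only the step between the fractions had ranges that did not overlap. It lay between the scramble-shRNA groups, whose ranges were separate for 26.2% of all genes. Heyl gave the reverse ladder, from 154 ± 29.0 CPM in Mylk-shRNA positive through 136 ± 44.8 and 131 ± 34.5 CPM to 78.6 ± 17.4, 72.6 ± 18.3 and 65.2 ± 20.9 CPM (SD, n = 3), and again only the step between the fractions was free of overlap. All 9 positive libraries lay above all 9 negative ones for 6.65% of all genes tested. For Dll4 the step without overlap was between the first and second groups, 27.7 ± 5.15 CPM in Mylk-shRNA negative and 21.7 ± 3.85 CPM in Rock1/2-shRNA negative libraries (SD, n = 3). The lowest Mylk-shRNA value there was 24.1 CPM and the highest Rock1/2-shRNA value 23.9 CPM, and these groups were separate for 3.66% of all genes. For the other 7 genes the ranges of all neighbouring groups overlapped.

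The 10 genes varied together to different degrees over the 18 libraries, given here as Pearson correlations of log2 CPM, which share the contrast of fractions and the litter difference and are descriptions. The highest was between Dll1 and Hey1 (r = 0.906), followed by Dll1 and Hes5 (0.848) and Hes5 and Hey1 (0.806). Jag1 followed Hey1 at 0.785 and Hes5 at 0.783. The values with Hes5 rest on 0 to 3 counts of Hes5 in each positive library. Hey1 and Heyl, members of 1 family, had an r of -0.37, and Notch3 and Dll1 of -0.77.

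Among the 10844 other genes averaging at least 5 CPM, those most like Dll1 were Myo5b (r = 0.971), Arl4c (0.969) and Pdgfa (0.965), and those most like Hey1 were Kdm2b (0.982), Fscn1 (0.978) and Cxxc5 (0.976). Dll4 was most like Gimap4 (0.948), Cdh5 (0.938), the endothelial cadherin, and Ednrb (0.920). Hes5 was most like Lhx1 (0.945), a transcription factor of early nephrons, Col18a1 (0.929) and Map7 (0.929). These 3 values for Hes5 rest on 0 to 3 counts in each positive library, and 4 of 9 held none. Heyl was most like Bmper (0.972), Mtus1 (0.948) and Pigk (0.947), and Notch3 most like Smtn (0.934), the smooth muscle protein smoothelin, Nedd4l (0.930) and Unc13b (0.928). For Notch1, Notch2, Jag1 and Hes1 the closest genes were Irs1 (0.904), Cpne3 (0.925), Klf13 (0.905) and Rrp15 (0.863).

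The rest of the pathway, 48 further genes of which 45 were tested, showed no common direction between the fractions. Of these 12 were higher and 7 lower in positive cells averaged over the vectors, beside the 17.6% higher and 16.0% lower of all genes. Their median log2 fold change was 0.006. Dll3, Dlk2 and Hes3 were not tested, and Hes3 had no count in any library. Of 4 tested receptors and ligands, Dlk1, a non-canonical ligand, was higher at 573 ± 35.2 against 271 ± 29.9 CPM (SD, n = 9; log2 fold change 1.03). Jag2, at 3.89 ± 1.38 against 7.46 ± 1.64 CPM (-0.90), and the endothelial receptor Notch4, at 8.33 ± 2.61 against 12.9 ± 4.35 CPM (-0.62), were lower.

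**Figure D4:**
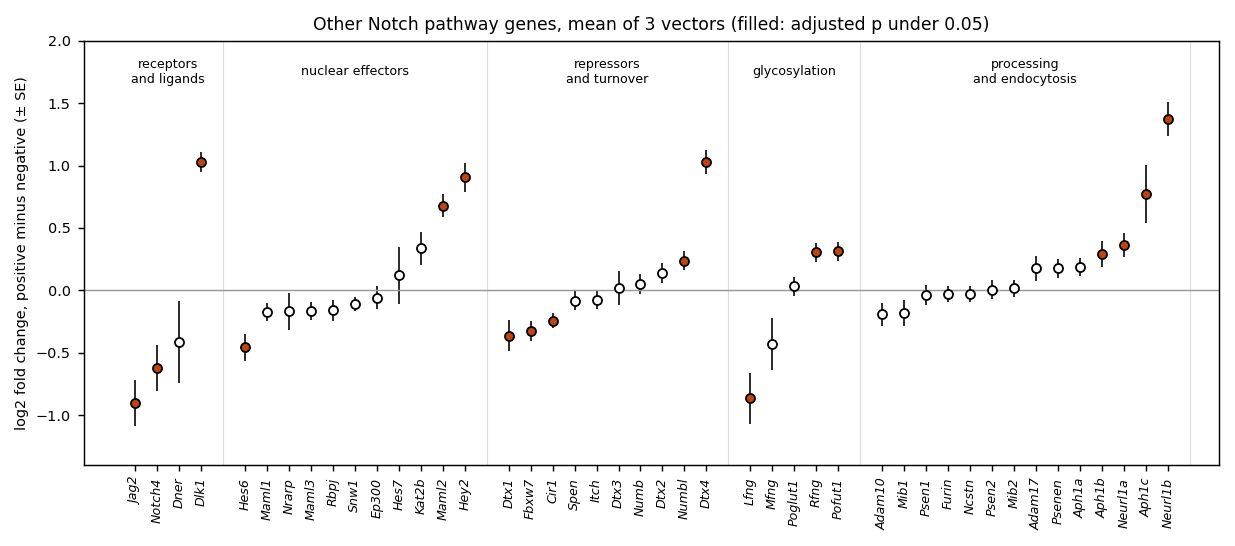
Log2 fold change ± SE (positive minus negative fraction, mean of 3 vectors) of tested further pathway genes, grouped by role and ordered by value; filled points passed an adjusted p of 0.05. The largest values are those of Neurl1b at 1.37, Dlk1 at 1.03 and Dtx4 at 1.03, and the lowest is that of Jag2 at -0.90.

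Of 11 tested nuclear effectors, Hey2 was higher at 28.3 ± 6.08 against 14.7 ± 2.14 CPM (SD, n = 9; log2 fold change 0.90), so that Hey2 moved as Heyl did and opposite to Hey1. The coactivator Maml2 was also higher (0.68), Hes6 was lower (-0.45), and 8 others did not pass, Rbpj among them. Of 11 repressors and turnover factors, 3 were higher, among them Dtx4 (1.03), an E3 ligase of the Deltex family, and Numbl (0.24), and 3 were lower, Fbxw7 (-0.32), Cir1 (-0.24) and Dtx1 (-0.36). Of 5 glycosyltransferases, Pofut1 (0.31), which adds fucose to the receptors, and Rfng (0.30) were higher, whereas Lfng, the lunatic fringe enzyme, was lower at 5.97 ± 1.54 against 10.1 ± 3.65 CPM (-0.87). Beside 17.6% higher and 16.0% lower of all genes tested, 4 of 14 genes for proteolysis and ligand endocytosis were higher and none lower. These were the ubiquitin ligases Neurl1b, at 19.4 ± 5.25 against 7.27 ± 1.47 CPM (1.37), and Neurl1a (0.36), and the gamma-secretase subunits Aph1c (0.77) and Aph1b (0.29).

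The hairpin vectors were compared next, within each fraction, to ask whether the 10 genes differed between the Mylk-shRNA or Rock1/2-shRNA vector and the scramble-shRNA vector. No member passed in any of the 6 comparisons of vectors, and no gene of the whole table did by edgeR. At an unadjusted p under 0.05 edgeR gave 1.56% of all genes for Mylk-shRNA and 0.876% for Rock1/2-shRNA in positive cells, each against scramble-shRNA, and 1.72% and 1.21% in negative cells. DESeq2 also called 0 genes, with 154, 79, 219 and 152 at an unadjusted p under 0.05 in the same order. Both vectors are set against the same scramble-shRNA libraries, so their values share these controls.

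**Figure D5:**
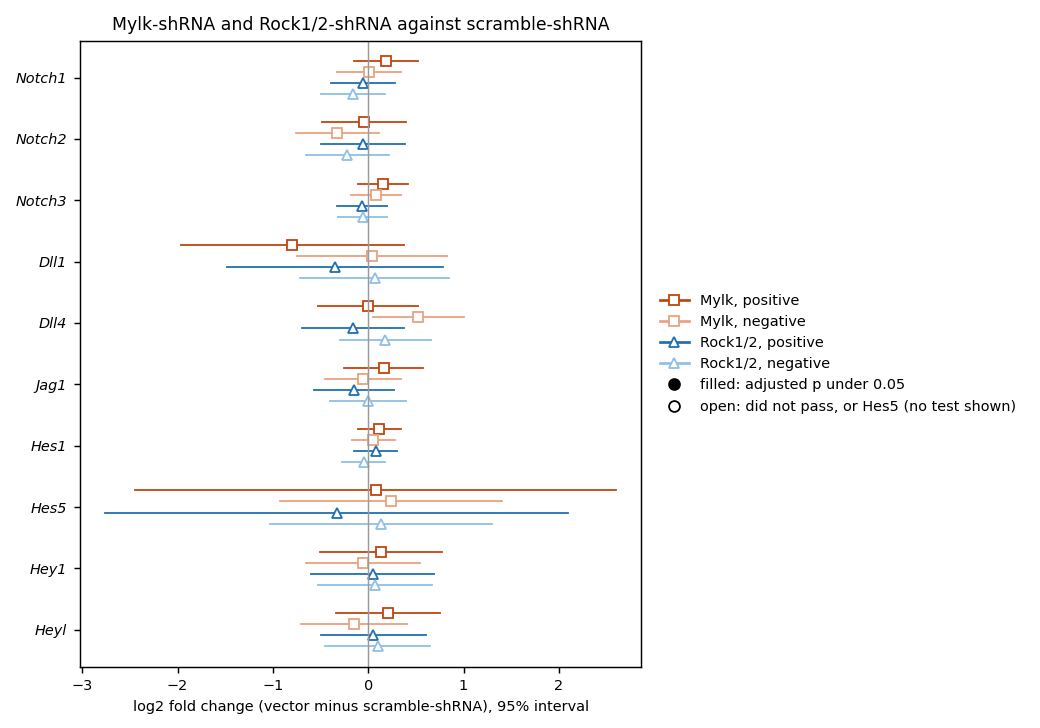
Log2 fold change (Mylk-shRNA or Rock1/2-shRNA minus scramble-shRNA) with 95% intervals from the edgeR fit for each gene in each fraction. No point passed an adjusted p of 0.05, and the widest intervals are those of Hes5 and Dll1 in the positive fraction.

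In the positive fraction the 10 genes ran with Mylk-shRNA from a log2 fold change of -0.80 for Dll1 (95% interval -1.97 to 0.38) to 0.21 for Heyl (-0.34 to 0.75), with a median of 0.13 beside 0.007 for all genes. All 3 Mylk-shRNA positive libraries lay below the 3 scramble-shRNA ones for Dll1 (3.34 to 4.23 against 4.44 to 7.73 CPM) and above them for Hes1 (162 to 170 against 152 to 153 CPM), and ranges were as separate for 6.44% of all genes. With Rock1/2-shRNA the 10 genes ran from -0.35 for Dll1 (-1.49 to 0.78) to 0.08 for Hes1 (-0.15 to 0.31), and no member's ranges were separate, beside 4.76% of all genes. Mylk-shRNA against Rock1/2-shRNA gave -0.44 for Dll1 to 0.41 for Hes5, and the smallest p was that of Notch3 at 0.22 (unadjusted p 0.0989, edgeR adjusted p 1). No member was separate by range there, beside 5.43% of all genes. This comparison called 0 genes by edgeR and by DESeq2, with 199 (1.20%) and 100 at an unadjusted p below 0.05.

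In the negative fraction the lowest and highest values with Mylk-shRNA were -0.32 for Notch2 (95% interval -0.76 to 0.11) and 0.53 for Dll4 (0.05 to 1.00). Dll4 measured 25.4, 24.1 and 33.6 CPM with Mylk-shRNA and 16.4, 23.8 and 16.2 CPM with scramble-shRNA in litters 1, 2 and 3. The ranges did not overlap, as for 4.42% of all genes, and the unadjusted p was 0.0321 (edgeR adjusted p 1). The summed endothelial markers were 304 to 415 CPM in these Mylk-shRNA and 235 to 292 CPM in these scramble-shRNA libraries, also without overlap, and their part in the Dll4 values was not tested. With Rock1/2-shRNA the values ran from -0.22 for Notch2 (-0.65 to 0.22) to 0.18 for Dll4 (-0.30 to 0.65), and no member was separate by range, beside 4.43% of all genes. Mylk-shRNA against Rock1/2-shRNA gave -0.25 for Heyl to 0.35 for Dll4, whose ranges were again separate, as for 3.66% of all genes. That comparison called 0 genes by edgeR and by DESeq2, with 121 (0.731%) and 71 at an unadjusted p below 0.05.

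Whether the difference between the fractions itself varied with the vector was tested as an interaction. With Mylk-shRNA the interaction ran from -0.83 for Dll1 (95% interval -2.25 to 0.58) to 0.35 for Heyl (-0.43 to 1.13), and with Rock1/2-shRNA from -0.46 for Hes5 (-3.17 to 2.25) to 0.16 for Notch2 (-0.46 to 0.78). The smallest p of a member was that of Dll4 in both, at -0.53 with Mylk-shRNA (unadjusted p 0.137) and -0.34 with Rock1/2-shRNA (unadjusted p 0.338), with edgeR adjusted p of 1. No gene of the table passed either interaction in edgeR or in DESeq2, with 217 (1.31%) and 145 (0.876%) at an unadjusted p below 0.05 in edgeR and 138 and 90 in DESeq2. The calls that Dll4, Hey1, Heyl and Notch3 gained or lost from vector to vector are therefore not shown to differ between vectors. On simulated counts the test recovered 76.5% of genes changed 2-fold and 6.5% of genes changed 1.5-fold when positive cells of Mylk-shRNA and scramble-shRNA cultures were compared, against 97.5% and 78.5% for the averaged comparison of fractions. These figures are for genes averaging at least 5 CPM over the 18 libraries, which leaves out levels like those of Hes5. Each simulation changed 200 genes, drew every gene at its mean over all libraries and held no litter differences. Recovery at levels like those of Dll1 in positive cells (3.34 to 7.73 CPM) was therefore not measured.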

How the data were processed

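Poly(A) RNA of sorted cells was tagmented and sequenced, per the labels' protocols. Per the submitters' processing notes, the build was GRCm39 and the tools included STAR 2.7.11 and Subread 2.1.1 (featureCounts). Annotation, strand and the handling of multiply mapped reads: not given in the sources used here. Deposited by the authors were expected counts, of which 22.1 to 27.4% of nonzero values per library were fractions, and CPM values.

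Counts were rounded, 92 ERCC spike-in rows dropped, and low genes removed by filterByExpr of edgeR (at least 10 counts, total at least 15). After TMM scaling, edgeR's quasi-likelihood test was applied to the 18 libraries together, each group having 1 mean (12 residual degrees of freedom, common BCV 0.165). The Benjamini-Hochberg adjustment covered 16544 genes in each of 12 comparisons, with a threshold of 0.05. SEs of log2 fold changes were worked back from the F statistics of this fit, and 95% intervals were built from them. They therefore need not match every p. Labels give litters as replicates, and libraries of 1 litter deviated together from their group means (45 pairs, r = 0.237 to 0.639; 90 pairs of different litters, r = -0.544 to 0.310), so litter was also fitted as a block. Replicates differed beyond sampling noise. Other alternatives were the culture as a block, DESeq2's size factors and test, no filter, only the groups compared, litter 3 left out and each library left out.

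The genes and lists were chosen with earlier results of these data known. Named besides the 10 genes are the 3 genes most correlated with a member (1 for some) and up to 4 called genes by smallest p in each list of other pathway genes. Of the 6 called repressors, 3 of the 4 with the smallest p are named, 2 were added after their values were seen, and 1 is not reported here. Hes5 passed the filter only through negative libraries and is left out of counts of calls between the fractions. The work used edgeR 4.0.16 and DESeq2 1.42.0 in R 4.3.3, and the tests were tried on simulated data.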

Additional observations from a re-analysis of the deposited data

How the results depend on the processing

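Averaged over the vectors, the calls of Notch3, Dll1, Dll4, Jag1, Hey1 and Heyl held under the 6 other settings and the 18 fits without 1 library; Hes1 and Notch1 were the exceptions given with their values in the report. The calls within single vectors moved most. With litter as a replicate block, genes called rose to 3848 with scramble-shRNA, 4019 with Mylk-shRNA and 3369 with Rock1/2-shRNA, from 2032, 2186 and 1859, and with the culture as a replicate block to 3466, 3674 and 3026. Of the 9 genes other than Hes5, scramble-shRNA gave 2 called, 5 under either block and 1 with no filter on low counts, and Rock1/2-shRNA 2, with 6 under either block and 4 by DESeq2. The pairing by litter changed no other call of these 9 genes than those given in the report. With only the groups compared, Mylk-shRNA gave 1303 genes. Leaving out 1 library gave 1182 to 2177 genes and 1 to 2 of the 9 with scramble-shRNA (fewest without the negative library of litter 2; 1184 without the positive one). It gave 1416 to 2438 genes and 2 to 5 of the 9 with Mylk-shRNA (fewest without the positive library of litter 1). It gave 1167 to 1560 genes and 1 to 3 of the 9 with Rock1/2-shRNA (1167 genes without the positive and 1228 without the negative library of litter 2; 1 of the 9 without the positive library of litter 1 or the negative of litter 2). The scramble-shRNA count also fell to 1 without its positive library of litter 1 or 2 or its negative one of litter 2. The cause was not tested.

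Signs changed only in values that never passed. Hes5 with Mylk-shRNA against Rock1/2-shRNA in the positive fraction, 0.41, became -0.73 without litter 3 and ran from -0.24 to 3.93 without 1 library. Notch2 without 1 library ran from -0.23 to 0.14 in the scramble-shRNA fractions, from -0.036 to 0.24 in the Rock1/2-shRNA fractions and from -0.016 to 0.35 in the Rock1/2-shRNA interaction. None of the 1096 alternative values of the 80 results on vectors and interactions was called (lowest adjusted p 0.561). Depth limits Hes5 most, at 0 to 3 counts in a positive library. Markers of several cell types differ between the fractions, which were sorted on mCherry alone, and the part of these markers was not tested.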
